A study of Mus musculus with 24 samples.

Results

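A set of 7 genes that make, sense or break down prostaglandins was followed in T11, a claudin-low mammary tumour line from mouse: Pla2g4a, Ptgs1, Ptgs2, Ptges, Ptger2, Ptger4 and Hpgd. They were taken by name from the deposited 23235 gene rows. All 7 have a row there, and 3 of them, Pla2g4a, Ptgs2 and Ptger4, averaged 1 FPKM or more across its 8 columns, as did 10262 genes altogether. FPKM is a fragment number scaled by transcript length and library size. The set was chosen on measured values of this same table, in which Ptgs2 was already known to be high with the fusion peptide. The differences below are therefore descriptions of these columns.

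The 24 samples fall into 8 groups of 3 biological replicates. Cells of 1 line, labelled as carrying a luciferase gene, received PBS, Omomyc, FPP-1746 or the fusion FPP-1746-Omomyc, with each peptide at 5 µM, and RNA was taken after 3 h or after 6 h. Omomyc is a mutant of the MYC dimerisation domain that competes with MYC for its partner and its sites. FPP-1746 is a carrier that crosses cell membranes, and the design asks what Omomyc does once it is joined to that carrier. The 3 samples titled as 6 h of the fusion carry a treatment tag of 3 h, and their titles and the column name, which say 6 h, were followed. The table gives 1 averaged column per group, so no spread between replicates is known, no test was possible, and no order of levels can be set against replicate error.

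Prostaglandins are lipid signals made on demand. Cytosolic phospholipase A2 (Pla2g4a) frees arachidonic acid from membranes, a cyclooxygenase (Ptgs1, mostly constitutive, or Ptgs2, strongly inducible) turns it into prostaglandin H2, and a terminal synthase such as Ptges makes prostaglandin E2. The EP2 and EP4 receptors (Ptger2, Ptger4) answer prostaglandin E2 by raising cAMP, and 15-hydroxyprostaglandin dehydrogenase (Hpgd) inactivates it. In mammary tumours cyclooxygenase 2 has long been studied for its part in inflammation, invasion and immune evasion, and Ptgs2 mRNA is a classic short-lived, immediate-early message.

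The promoter windows of the 3 members above 1 FPKM are shown because their levels are compared below. Each runs from 250 bases before to 50 bases after the RefSeq start of the gene, 5′ to 3′ on the gene's own strand, in build GRCm38.p6. Ptgs2 is at chr1:150099781-150100080 on the plus strand, Ptger4 at chr15:5244138-5244437 on the minus strand and Pla2g4a, the first of 2 windows the table gives, at chr1:149961241-149961540 on the minus strand. Capitals mark matches to the motifs searched, all on both strands.
Ptgs2: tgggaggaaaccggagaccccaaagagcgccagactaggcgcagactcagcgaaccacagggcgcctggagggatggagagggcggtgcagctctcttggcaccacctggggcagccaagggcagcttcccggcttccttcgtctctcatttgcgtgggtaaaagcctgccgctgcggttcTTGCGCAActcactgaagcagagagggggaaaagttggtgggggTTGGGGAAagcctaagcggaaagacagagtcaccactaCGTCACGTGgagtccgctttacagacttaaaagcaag
Ptger4: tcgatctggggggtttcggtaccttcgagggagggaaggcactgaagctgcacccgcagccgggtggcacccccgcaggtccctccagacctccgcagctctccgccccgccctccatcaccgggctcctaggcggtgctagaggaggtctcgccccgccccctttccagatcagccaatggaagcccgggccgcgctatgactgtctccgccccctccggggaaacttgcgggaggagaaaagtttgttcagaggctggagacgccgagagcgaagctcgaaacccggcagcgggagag
Pla2g4a: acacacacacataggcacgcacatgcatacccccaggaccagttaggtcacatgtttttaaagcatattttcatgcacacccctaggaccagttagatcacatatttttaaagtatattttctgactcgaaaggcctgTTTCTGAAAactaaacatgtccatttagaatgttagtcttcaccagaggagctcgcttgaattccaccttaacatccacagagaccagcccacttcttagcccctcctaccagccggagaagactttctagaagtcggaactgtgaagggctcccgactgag

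The letters searched were the E-box CACGTG that MYC and MAX bind, the cAMP response element TGACGTCA and its core TGACG, the AP-1 site TGANTCA, the C/EBP-ATF site TGATGNAA, the C/EBP site TTNNGNAA, the TATA box TATAAA and the NF-kB consensus. In the Ptgs2 window an E-box lay at bases 17 to 22, counting the RefSeq start as base 1. It overlapped a TGACG core read on the other strand at bases 14 to 18. Where transcription of Ptgs2 starts in these cells was not measured, so this count does not place the sites inside the transcript. Of all 27025 RefSeq windows, 7.24% held the E-box, 21% the TGACG core and 0.463% the joined run CGTCACGTG, a search added after the overlap was seen. Among the 7334 windows that matched a tested gene by symbol, of 10262 such genes, the shares were 11.1%, 34.7% and 1.15%. The Ptgs2 window also held TTGCGCAA and TTGGGGAA, both matches to the C/EBP letters, which 40.7% of all windows and 29.4% of those of tested genes hold. The Pla2g4a window held 2 overlapping C/EBP matches, and the Ptger4 window, with a GC share of 67%, held none of the letters searched. No match among the 3 windows was found for the full cAMP response element (1.88% of all windows), AP-1 (7.93%), C/EBP-ATF (4.06%), TATAAA (14.2%) or NF-kB (4.35%). These are letter matches in short windows and were not tied to the measurements. A site outside the windows would not be seen, so no match here does not mean that the gene has none.

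The end of the Ptgs2 message was looked at for ATTTA, the letters of AU-rich elements through which such mRNAs are destabilised. The GENCODE M21 transcript ENSMUST00000035065 holds 14 copies in a 3′ UTR of 2445 bases, and 2.61% of 8928 tested genes with an annotated 3′ UTR held as many or more. Ptger4 held 5 copies in 1233 bases (21.7% held as many) and Pla2g4a 4 in 443 bases (28.5%). These shares take no account of length, and a longer 3′ UTR has room for more copies. Per kb the number was 5.73 for Ptgs2, 4.06 for Ptger4 and 9.03 for Pla2g4a, so Ptgs2 was not the densest. Bases 16 to 45 of the Ptgs2 3′ UTR carry 4 of its copies, in capitals, and are shown for the dense start of the run.
Ptgs2 3′ UTR: ATTTATTTATTTAtgtgaagaATTTAattt

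Each column summed to 445657 to 594951 FPKM and held 10035 to 10288 genes of at least 1 FPKM. The highest sum was that of the fusion at 3 h and the lowest that of the fusion at 6 h. In PBS the sums were 486989 and 468758. The 8 mesenchymal markers listed for a claudin-low line summed to 3564 to 5479 FPKM, of which Vim alone made up 3302 to 5128. Fn1 stood at 145 to 230 FPKM, Twist1 at 22.0 to 89.9, Zeb1 at 7.06 to 13.7 and Zeb2 at 7.49 to 19.8. Snai2 stood at 4.11 to 13.4, Pdgfra at 0.684 to 6.46 and Col1a1 at no more than 0.296. The 9 epithelial markers summed to at most 0.197 FPKM, with Epcam and Krt18 listed at 0 in every column. The 5 endothelial markers summed to at most 0.182 and the 6 mast cell markers to at most 0.0235. Of 9 macrophage markers 7 stayed below 1 FPKM in every column, and Csf1r, Ptprc, Itgam and Lyz2 reached at most 0.0523 FPKM. Their sum still went from 11.2 and 14.3 FPKM in PBS to 81.0 and 121 FPKM with the fusion, at 3 h and 6 h, through Cd14 and Cd68. In such bulk averages fewer cells of a type and less RNA per cell cannot be told apart.

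Ptgs2, the inducible cyclooxygenase gene, was the member that differed most. At 3 h its FPKM was 68.9 for PBS, 109 for Omomyc, 127 for FPP-1746 and 852 for the fusion. At 6 h the values were 29.4 for PBS, 42.8 for Omomyc, 35.7 for FPP-1746 and 354 for the fusion. The fusion columns stood far above all others at both times, and the fusion at 6 h was still above every 3 h column without the fusion. Among 22490 rows that are not small RNA records, Ptgs2 ranked 82nd by level in the fusion at 3 h and 1389th in PBS at 3 h. At 6 h it ranked 139th with the fusion and 3086th in PBS.

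**Figure D1:**
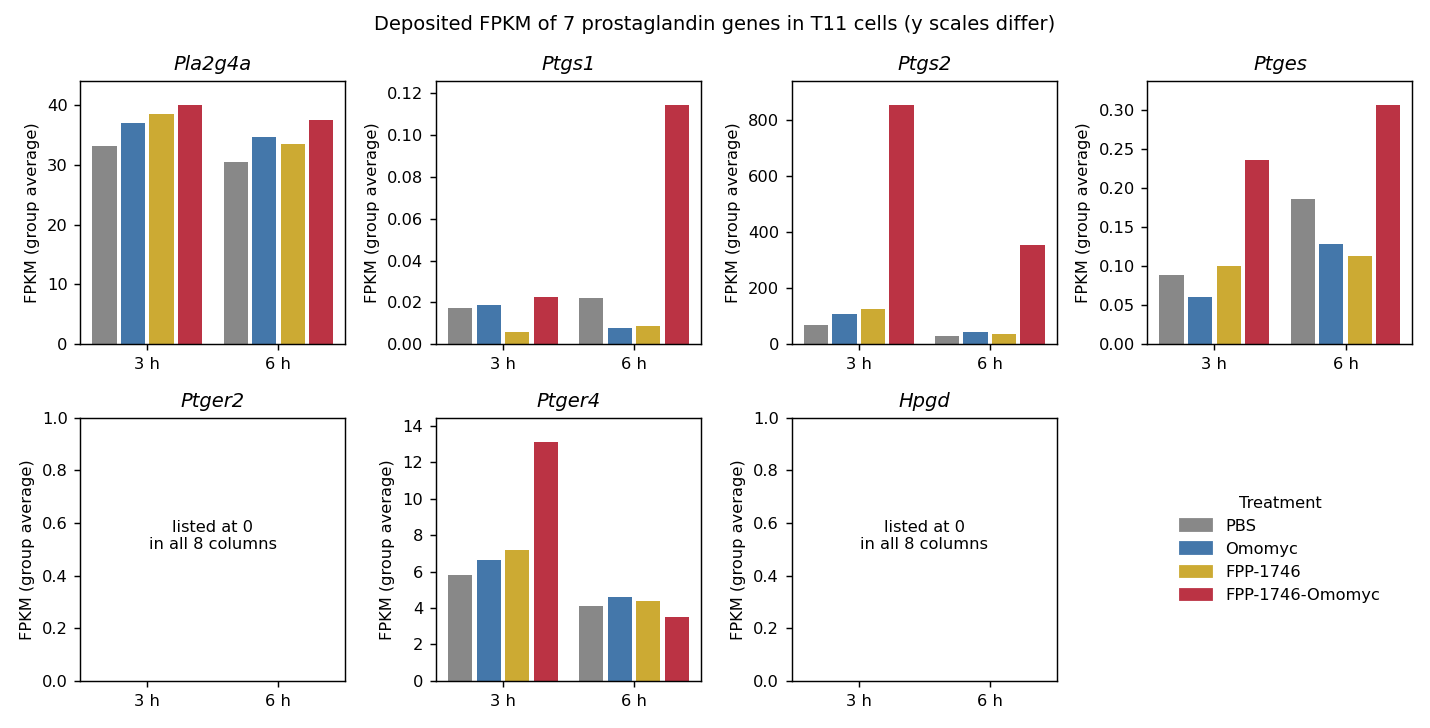
FPKM (y, group average, a separate scale for each gene) of the 7 genes in PBS (grey), Omomyc (blue), FPP-1746 (yellow) and FPP-1746-Omomyc (red) at 3 h and 6 h; each bar is 1 deposited average with no error known. Ptgs2 reached 852 and 354 FPKM with the fusion, Ptger4 stood at 13.1 FPKM only in the 3 h fusion bar, Pla2g4a stayed between 30.4 and 40.0 FPKM, and Ptger2 and Hpgd were listed at 0.

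Ptgs2 lies at chr1:151947254-151955142 in mm9, the build of the table, a locus it shares with no other row. Its FPKM was 12.4 times that of PBS at 3 h and 12.0 times at 6 h. On the scale used for calls, the log2 ratio of FPKM + 1, the differences were 3.61 and 3.55. Ranked among the 10121 tested genes that are not small RNA records, Ptgs2 was the 22nd highest at 3 h and the 8th highest at 6 h. A gene was called where FPKM + 1 differed at least 2-fold. For the fusion against PBS at 3 h, 6.13% of tested genes were called higher and 4.42% lower, and at 6 h 7.13% and 3.34%. Of the 3 members tested, 2 were called higher at 3 h, Ptgs2 and Ptger4, 1 was called higher at 6 h, Ptgs2, and none was called lower. Since the set was chosen with this contrast in view, nothing further is read from these shares.

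Each peptide on its own also stood above PBS for Ptgs2, by much less. The log2 difference was 0.87 for FPP-1746 and 0.65 for Omomyc at 3 h, against 0.27 and 0.53 at 6 h. None reached 2-fold. Calls in either direction were few in these comparisons: 0.614% of tested genes for FPP-1746 and 0.614% for Omomyc at 3 h, and 0.555% and 0.682% at 6 h. Small as they are, the 3 h differences of Ptgs2 ranked 4th highest of the 10121 genes for FPP-1746 and 6th highest for Omomyc. The genes ranked above it were Snhg9, F3 (tissue factor) and Ctgf for FPP-1746, and Airn, Dusp1, F3, Cdc42ep3 and Acta2 for Omomyc. At 6 h Ptgs2 ranked 160th and 26th. Set against the mean of both PBS columns, Ptgs2 stood at 1.35 for FPP-1746 and 1.13 for Omomyc at 3 h, past 2-fold. At 6 h it stood at -0.45 and -0.20, on the other side of 0. That reference mixes the times, and PBS itself went from 68.9 FPKM at 3 h to 29.4 at 6 h. It therefore raises every 3 h ratio of Ptgs2 and lowers every 6 h ratio by a fixed amount, whatever the peptide. The comparisons with PBS at a given time share 1 PBS column and are not independent of each other.

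The fusion was above both of its parts. Against FPP-1746 the log2 difference of Ptgs2 was 2.73 at 3 h and 3.27 at 6 h, and against Omomyc it was 2.96 and 3.02. In these comparisons 5.86% and 6.94% of tested genes were called higher against FPP-1746, and 5.56% and 6.59% against Omomyc, at 3 h and 6 h. Ptgs2 was the 1 member of 3 called higher in each of the 4. In FPKM, Omomyc stood 39.9 and FPP-1746 58.3 above PBS at 3 h, 98.2 together, while the fusion stood 783 above. At 6 h the increments of both parts came to 19.8 FPKM together and that of the fusion to 324. The 3 peptides were given at the same dose, and the amount inside the cells is not part of these data.

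**Figure D2:**
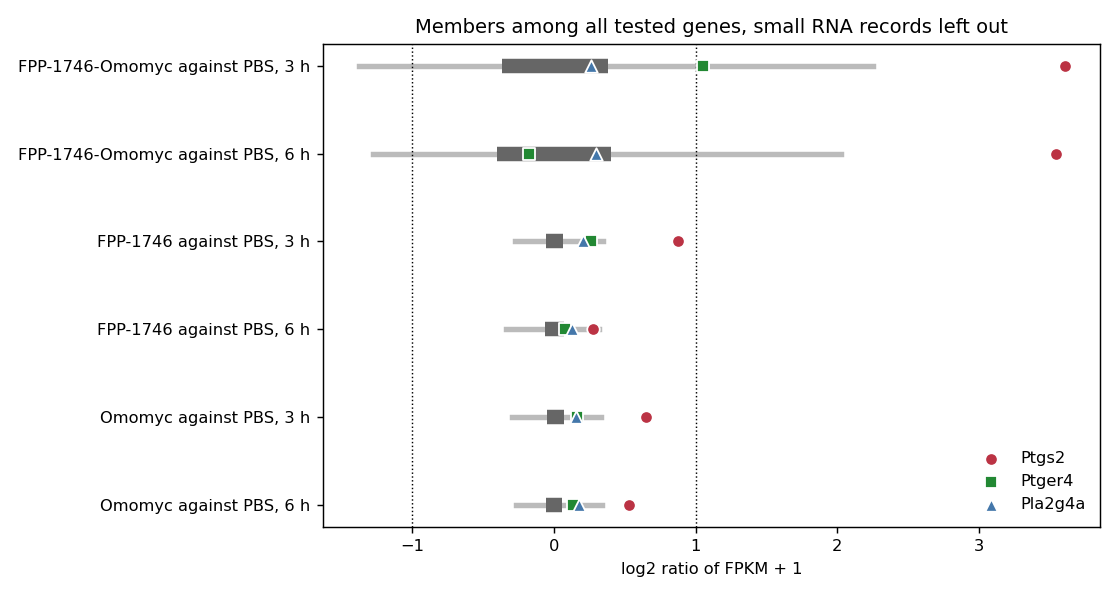
Log2 ratio of FPKM + 1 (x) for the 6 comparisons with PBS (y); dark bars span the quartiles of the 10121 genes and light bars their 1st to 99th percentiles, and points are Ptgs2 (red circle), Ptger4 (green square) and Pla2g4a (blue triangle). Ptgs2 lies outside the light bar in 5 of the 6 comparisons, the exception being FPP-1746 at 6 h (0.27), and Ptger4 passes the dotted 2-fold line in the 3 h fusion comparison alone (1.05).

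With time Ptgs2 fell in every treatment, PBS included. From 3 h to 6 h the log2 difference was -1.20 for PBS, -1.33 for Omomyc, -1.81 for FPP-1746 and -1.27 for the fusion. All 4 passed the 2-fold rule as lower, and the share of tested genes doing so was 0.487% for PBS, 0.789% for Omomyc, 0.77% for FPP-1746 and 4.92% for the fusion. Counted from the lowest of the 10121 genes, Ptgs2 was 14th for PBS, 25th for Omomyc, 5th for FPP-1746 and 145th for the fusion. On the log2 scale PBS thus moved by nearly as much as the fusion did. In FPKM the fusion fell by 499 and PBS fell by 39.6. With quantile normalisation the fusion's difference was -0.54 and no longer a call. The fusion's own time comparison rests on the column whose samples carry the 3 h tag.

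Upstream of Ptgs2, Pla2g4a, which supplies arachidonic acid, stayed nearly level. Its FPKM at 3 h was 33.1 for PBS, 37.0 for Omomyc, 38.4 for FPP-1746 and 40.0 for the fusion, and at 6 h 30.4, 34.6, 33.4 and 37.6 in the same order. The fusion column was the highest and the PBS column the lowest at each time, and the whole range was 0.38 on the log2 scale. Against PBS the fusion differed by 0.26 and 0.29, FPP-1746 by 0.21 and 0.13 and Omomyc by 0.15 and 0.18, with no call. The supply gene and the cyclooxygenase gene thus parted: the FPKM ratio of Ptgs2 to Pla2g4a was 2.08 in PBS and 21.3 with the fusion at 3 h, and 0.964 and 9.41 at 6 h.

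Pla2g4a, at chr1:151676752-151808414, ends 138839 bases before Ptgs2 in mm9. The rows around Ptgs2 were therefore set side by side within 500 kb. Directly before it, ending 357 bases away, 7530420F21Rik had FPKM values of 2.78 in PBS and 2.70 with the fusion at 3 h, and 3.54 and 5.45 at 6 h. On the log2 scale it differed by -0.03 and 0.51, Tpr, a nuclear pore gene, by -0.38 and -0.33, and BC003331 by 0.11 and -0.34. The last 2 share 1 listed locus, so their reads may be mixed. No other row above 1 FPKM lay in this stretch, and of the rows shown Ptgs2 alone passed 2-fold.

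**Figure D3:**
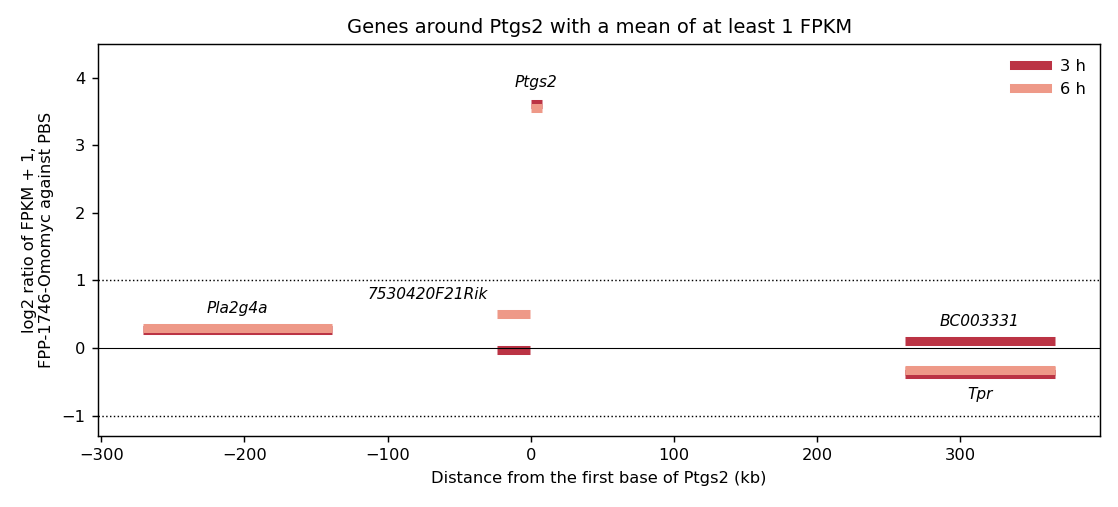
Log2 ratio of FPKM + 1, FPP-1746-Omomyc against PBS (y), of each gene around Ptgs2 that averaged 1 FPKM or more, drawn over its listed extent as distance from the first base of Ptgs2 in kb (x), at 3 h (dark) and 6 h (light). Ptgs2 stands at 3.61 and 3.55, while its 4 neighbours lie between -0.38 and 0.51; BC003331 and Tpr share 1 listed locus, and their 6 h bars (-0.34 and -0.33) overlie each other.

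The other cyclooxygenase and the terminal synthase were at the floor of the table. Ptges, which encodes microsomal prostaglandin E synthase 1 (chr2:30744991-30758817), was listed at 0.0888, 0.0602, 0.0998 and 0.236 FPKM at 3 h in PBS, Omomyc, FPP-1746 and the fusion, and at 0.186, 0.128, 0.113 and 0.306 FPKM at 6 h. The fusion column was the highest at each time. Read against a rough estimate of what 1 fragment is worth, taken from the step between low values, these are about 9.34 to 46.9 fragments per column. Ptgs1 (chr2:36085946-36107789) was listed between 0.00595 and 0.0224 FPKM in 7 columns and reached 0.114 FPKM in the 6 h fusion column. By the same estimate that is 0.735 to 3.36 fragments in the 7 columns and 13.8 in the last, and no fold is given for either gene. At these levels Ptgs2 was the cyclooxygenase gene with nearly all the listed mRNA, from 29.4 to 852 FPKM against at most 0.114 for Ptgs1, both per length of transcript.

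Ptger4, which encodes the EP4 receptor (chr15:5183404-5193831), was higher with the fusion at 3 h and not at 6 h. At 3 h its FPKM was 5.81 for PBS, 6.62 for Omomyc, 7.16 for FPP-1746 and 13.1 for the fusion. At 6 h the values were 4.12, 4.61, 4.40 and 3.52 FPKM, so that the fusion went from the highest column to the lowest. The log2 difference from PBS was 1.05 at 3 h, just inside the 2-fold rule and 535th highest of the 10121 genes, and -0.18 at 6 h. With pseudocount 5 in place of 1 the 3 h value was 0.75, no longer a call. Whether the 3 h and 6 h differences themselves differ was not tested, since each rests on 1 average per group.

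Against its parts the fusion differed for Ptger4 by 0.79 from FPP-1746 and 0.89 from Omomyc at 3 h, neither past 2-fold, and by -0.26 and -0.31 at 6 h. FPP-1746 and Omomyc differed from PBS by 0.26 and 0.16 at 3 h and by 0.08 and 0.13 at 6 h. The increments over PBS at 3 h were 2.15 FPKM for both parts together and 7.31 FPKM for the fusion. From 3 h to 6 h Ptger4 fell by 1.64 on the log2 scale with the fusion, the 40th lowest value, and passed the rule there. In PBS, Omomyc and FPP-1746 the same difference was -0.41, -0.44 and -0.59, not past it. Around Ptger4 the nearest row above 1 FPKM, Ttc33, ends 15071 bases before it and differed by -0.56 and 0.46 between fusion and PBS at 3 h and 6 h.

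Ptger2, the gene of the EP2 receptor (chr14:45607786-45623495), and Hpgd (chr8:58773349-58799843) were listed at 0 in all 8 columns. A listing near 0 is a value of this table and need not mean that the mRNA was missing. Gapdh was listed at 0.249 to 0.518 FPKM and Ppia at 0.107 to 0.323 FPKM, although every cell uses both. Of other genes in wide use, Actb was listed at 812 to 3273 FPKM, Hprt at 107 to 174 and Tbp at 22.4 to 34.0. Why Gapdh and Ppia were low, and whether that bears on Ptger2 and Hpgd, was not tested. In the same columns 6794 rows were at 0 throughout.

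The 3 genes whose columns ran most like those of Ptgs2, by Pearson r of log2(FPKM + 1) over the 8 columns, were Fam38a (r = 0.999), an older symbol of the mechanosensitive channel gene Piezo1, the phosphofructokinase gene Pfkp (0.998) and the nucleoporin gene Nup98 (0.997). All 3 placed the 8 columns in the same order as Ptgs2, as 36 of 9331 genes compared did, and 13 genes had r of at least 0.99. They moved over a far smaller range: Fam38a differed by 0.71 and 0.73 between fusion and PBS at 3 h and 6 h. For Ptger4 they were the inositol trisphosphate receptor gene Itpr3 (0.997), Eml2 (0.994) and Sdk1 (0.993), with 7 genes at 0.99 or more. The 8 columns share the split between the fusion and the rest, and 312 genes had r of at least 0.95 with Ptgs2 and 151 with Ptger4.

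**Figure D4:**
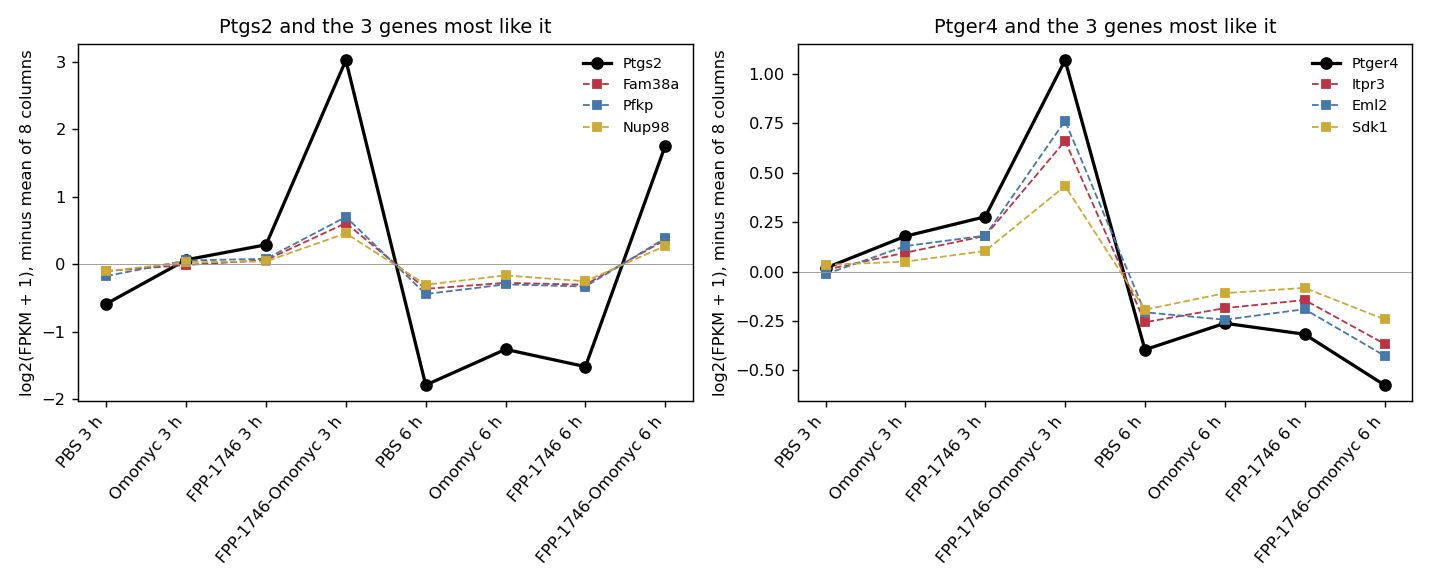
Log2(FPKM + 1) minus the gene's own mean over the 8 columns (y) in each column (x), for Ptgs2 (left) and Ptger4 (right) in black and the 3 genes with the highest Pearson r in colour; each point is 1 deposited average. The columns of Fam38a, Pfkp and Nup98 stand in the same order as those of Ptgs2 over a smaller range, and Ptger4 peaks in the fusion at 3 h and is lowest in the fusion at 6 h.

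Of the other eicosanoid genes tested, 1 passed the 2-fold rule for the fusion against PBS, Acsl4 at 6 h. Over all tested genes 6.13% and 7.13% were called higher and 4.42% and 3.34% lower, at 3 h and 6 h. With such shares, lists this short can hold few calls or none without differing from other genes. Of 20 other phospholipase genes 6 were tested and none was called at either time, with a median log2 difference of 0.22 at 3 h and -0.07 at 6 h, beside 0.0034 and -0.026 over all tested genes. The widest was Pla2g7, which encodes an enzyme that breaks down platelet-activating factor, at 12.8 and 22.5 FPKM in PBS and the fusion at 3 h (0.77) and 14.7 and 17.8 at 6 h (0.26). Of 9 other prostanoid synthase genes found among the rows (of 10 in the list) 3 were tested and none was called. Both further prostaglandin E synthase genes stood lower with the fusion: Ptges3, the co-chaperone p23, at 60.6 and 35.7 FPKM at 3 h (-0.75) and 55.9 and 42.4 at 6 h (-0.39), and Ptges2 at 24.9 and 20.7 (-0.25) and 28.8 and 19.0 (-0.58). Cbr1, a carbonyl reductase gene, was at 7.50 and 11.9 FPKM (0.60) and at 7.61 and 6.38 (-0.22).

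Of the other 7 prostanoid receptors only Ptger1 was above 1 FPKM. Its listed locus is not its alone, so reads may be mixed. The same limit holds for Pla2g7, Cebpd, Has2, Zeb1 and Zeb2. Ptger1 stood at 3.23 FPKM in PBS and 3.68 with the fusion at 3 h (0.15) and at 4.76 and 3.17 at 6 h (-0.46). Ptger3 and Ptgdr were listed at 0 in every column. Of 4 genes of prostaglandin transport and breakdown 3 were tested and none was called, among them Ptgr1, a prostaglandin reductase gene, at 16.7 and 25.3 FPKM (0.57) and at 16.6 and 16.7 (0.01). Of 14 leukotriene and lipoxygenase genes Lta4h and Alox5ap were tested, neither called. Of 10 genes of arachidonate supply 6 were tested, and 1 was called, at 6 h: Acsl4, an acyl-CoA synthetase that prefers arachidonate, at 64.2 FPKM in PBS and 131 with the fusion (1.01), after 71.7 and 79.4 at 3 h (0.15). Anxa1, whose product restrains phospholipase A2, was at 739 and 1332 FPKM at 3 h (0.85) and at 662 and 998 at 6 h (0.59).

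**Figure D5:**
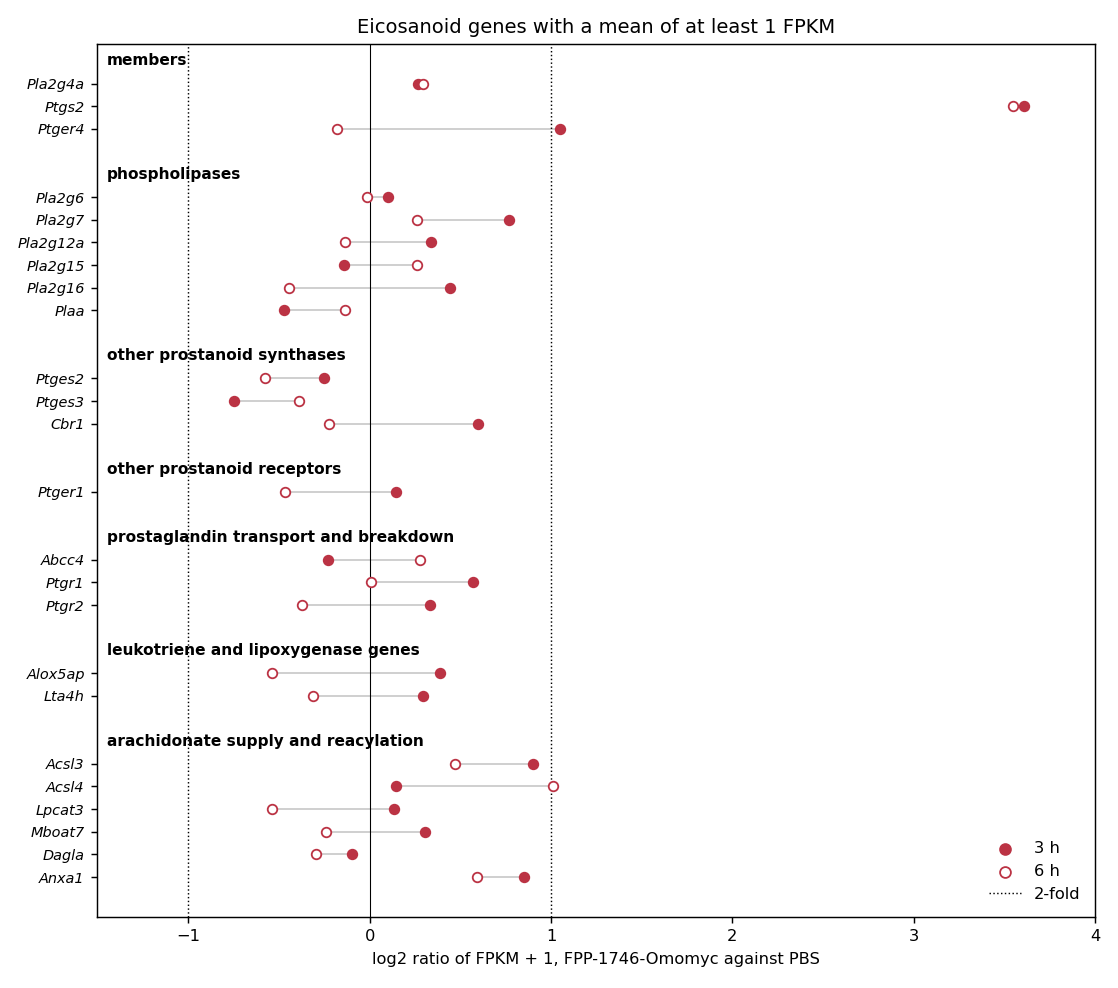
Log2 ratio of FPKM + 1, FPP-1746-Omomyc against PBS (x), at 3 h (filled) and 6 h (open) for the members and the other eicosanoid genes that averaged 1 FPKM or more (y), grouped by role; each point compares 2 deposited averages. Ptgs2 stands alone near 3.6, and besides it only Ptger4 at 3 h (1.05) and Acsl4 at 6 h (1.01) pass the dotted 2-fold line.

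Downstream of EP2 and EP4, 17 of 20 genes of cAMP signalling were tested, with medians of -0.14 and -0.11. For this list and those that follow, the background over all tested genes at 3 h and 6 h was 6.13% and 7.13% called higher, 4.42% and 3.34% called lower, and a median of 0.0034 and -0.026. Pde4b, a phosphodiesterase that breaks down cAMP, was called higher at both times. Its FPKM at 3 h was 2.59 for PBS, 4.30 for Omomyc, 4.12 for FPP-1746 and 16.1 for the fusion (2.26 against PBS), and at 6 h 3.83, 7.04, 5.73 and 14.8 (1.71). Pde4b stood above PBS in every peptide column, as did Ptgs2, the nearly level Pla2g4a and Pde4d, among others. Pde4a, of the same family, was called lower at 3 h, with a log2 difference of -1.06, and stood at -0.74 at 6 h. Of 13 genes known as targets of the cAMP-responsive factor CREB 11 were tested. All 11 were called higher with the fusion at both times, beside 6.13% and 7.13% of all tested genes, with medians of 3.92 and 2.37. The mean of 1 FPKM that admits a gene includes the fusion columns. Nr4a3, at no more than 0.136 FPKM without the fusion and 9.82 and 6.12 with it, passed only through them. The filter itself thus favours such calls, and nothing is read from this share. The 11 were led by Fosb (5.61 and 4.25), Nr4a1 (5.11 and 3.31), Nr4a2 (4.77 and 3.20) and Rgs2 (4.46 and 3.72). Many of these are also immediate-early genes that other signals switch on, and the list was drawn up with such values known.

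Among 11 genes whose products act on the stability or translation of Ptgs2 mRNA, all tested, 2 were called higher at 3 h (6.13% of all tested genes), and 3 higher (7.13%) and 1 lower (3.34%) at 6 h. Zfp36, whose product tristetraprolin binds AU-rich elements such as the one printed above and speeds decay, was at 7.96 FPKM in PBS and 98.1 with the fusion at 3 h (3.47) and at 6.77 and 23.6 at 6 h (1.66). Its relative Zfp36l1 was at 8.20 and 60.9 (2.75) and at 7.22 and 28.4 (1.84). Zfp36l2 differed in sign, being at 207 and 174 FPKM at 3 h (-0.25) and at 108 and 236 at 6 h (1.12). Hnrnpd, the AU-binding protein AUF1, was at 46.1 and 30.6 (-0.58) and then called lower at 48.9 and 19.8 (-1.26). The medians over the 11 were -0.07 and -0.14.

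A list of 18 genes for transcription factors known to act on Ptgs2 also holds Nfkbia, which encodes an inhibitor of NF-kB and is no transcription factor itself. Of the list 17 genes were tested, and 8 were called higher at 3 h, Nfkbia (2.43) among them, and 6 at 6 h, where Nfkbia was not (0.42). None was called lower, and the medians were 0.68 and 0.77. Fos (6.90 and 4.38) and Egr1 (4.35 and 2.99) led, followed by the C/EBP genes Cebpd (3.54 and 2.47) and Cebpb (2.47 and 2.60). Fos, at 0.340 to 0.760 FPKM without the fusion and 170 and 27.5 with it, passed the filter only through the fusion columns. Of 16 genes that accompany Ptgs2 in ovulation and inflammation 8 were tested and 7 were called higher at both times, beside the 6.13% and 7.13% of all tested genes, with medians of 2.72 and 2.15. Cxcl1 differed by 4.72 and 2.66, Il6 by 3.58 and 3.37, Areg, an EGF receptor ligand already counted among the CREB targets, by 3.49 and 2.37, and Lif by 2.80 and 1.86. The exception was Has2, the hyaluronan synthase gene, at -0.96 and 0.53. Il6, at 0.328 to 1.02 FPKM without the fusion, and Il11, at 0.220 to 0.412, likewise passed the filter only through the fusion columns. The filter itself thus raises the share called, and nothing is read from it. The macrophage marker Cd14 was also higher with the fusion, at 10.1 and 77.4 FPKM at 3 h and 12.9 and 118 at 6 h in PBS and the fusion. Its log2 difference was 2.82 and then 3.10, while the median of the list above fell from 2.72 to 2.15. Emr1 and Cd163, which define macrophages, were listed at 0 in every column. The part of Cd14 in the levels of Ptgs2 was not tested.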

How the data were processed

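RNA-seq was run on 24 samples of T11 cells, 8 groups of 3 biological replicates. The authors deposited 1 table of FPKM values, averaged per group into 8 columns, with gene positions in mm9, and starts were shifted to count from 1. Cuffnorm 2.2.1, Cufflinks 2.2.1, STAR 2.1.3 and bcl2fastq 2.17.1.14 appear in the submitters' processing notes, with mm9 as build. The sources used here do not give their order, settings, library scaling or use of strand. Replicate values were not analysed here.

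Log2 ratios of FPKM + 1 were computed with pandas 2.3.3 for genes averaging 1 FPKM or more, which understates the change of low genes. That average includes the fusion columns, so a gene high only with the fusion can pass it. For a call the rule was 2-fold. The rule for calls, written out again apart from the script that made them, was tried on simulated data with known changes. That gives no replicate error for the real columns. Ranks leave out 141 small RNA records, a choice made after seeing the data. The members and the 11 pathway and 5 marker lists were chosen with earlier results of these data known. Besides the members, up to 4 genes per list with the largest fusion-to-PBS ratio were to be named. So were the 3 genes most like Ptgs2 and Ptger4. The genes ranked above Ptgs2 for each part, Cd14, other marker genes and the neighbouring genes were named after their values were seen. The same holds for Gapdh, Ppia, Actb, Hprt and Tbp, and for the ATTTA count.

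Depth is not recorded. The FPKM of 1 fragment times transcript length was estimated at 18.9 to 30.1 per column from 74 to 113 genes among low values, roughly, since each column averages 3 replicates. Promoter windows are from RefSeq (GRCm38.p6) and transcripts from GENCODE M21, matched by symbol. The planned comparison of protein sequences was not run. Alternatives were another pseudocount, filter, fold, scaling and PBS reference.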

Additional observations from a re-analysis of the deposited data

Results flagged for a closer look

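Ptger4 stood above PBS with the fusion at 3 h (log2 ratio 1.05) and below it at 6 h (-0.18), so the sign differed between the times. The same held in reverse for Zfp36l2, a relative of tristetraprolin, at -0.25 at 3 h and 1.12 at 6 h. Neither difference between times was tested, because each group is 1 average.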

How the results depend on the processing

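No paired analysis was possible because the table holds only group averages, and for the same reason no replicate could be left out. Over the alternatives the log2 ratio of Ptgs2, fusion against PBS, ran from 3.12 to 4.09 at 3 h and from 2.82 to 3.74 at 6 h, that of Pla2g4a from 0.22 to 0.32 and from 0.23 to 0.33, and that of Ptger4 from 0.75, with pseudocount 5 and no longer past 2-fold, to 1.24 at 3 h and from -0.40 to -0.10 at 6 h. Against the mean of both PBS columns, Ptgs2 differed at 3 h by 1.35 for FPP-1746 and 1.13 for Omomyc, each then past 2-fold. At 6 h it differed by -0.45 and -0.20, where the sign turned, and Ptger4 turned there too, to -0.14 and -0.09. These shifts, and the 4.09 and 2.82 of Ptgs2 above, follow from the fall of PBS itself between the times. They say nothing more about the peptides. With quantile normalisation the fall of Ptgs2 with the fusion from 3 h to 6 h was -0.54, no longer called.

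Of the members called higher with the fusion against PBS at 3 h (2), 1 was left with pseudocount 5 and 1 at 3-fold. Of those lower with the fusion from 3 h to 6 h (2), 1 was left with quantile normalisation and 1 at 3-fold. At 1.5-fold, FPP-1746 and Omomyc against PBS at 3 h gave 1 each in place of 0, as did the mean of both PBS columns, the fusion against FPP-1746 and against Omomyc at 3 h gave 2 each in place of 1, and FPP-1746 from 3 h to 6 h gave 2 lower in place of 1. At 3-fold PBS and Omomyc from 3 h to 6 h gave 0. No replicated test was run behind these counts.

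Over all tested genes the fusion's calls higher and lower at 3 h (629 and 454) became 381 and 154 with pseudocount 5, 1612 and 1492 at 1.5-fold and 278 and 75 at 3-fold, and with pseudocount 0.1 those lower became 704. At 6 h (732 and 343) they became 365 and 152 with pseudocount 5, 1787 and 1564 at 1.5-fold and 227 and 76 at 3-fold. No scaling tried moved the median of all genes by over 0.1. With windows cut to the 250 bases before the start the Ptgs2 promoter held 0 E-boxes and 0 TGACG cores. By the rough estimate, Ptges rests on at most 46.9 fragments and Ptgs1 on at most 13.8 per column, and the causes of the shifts were not tested.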
